A study of Mus musculus with 18 samples.

Results

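The genes described here encode collagens, basal lamina components and other matrix proteins, measured in ovaries of young Pik3cd+/- and Pik3cd-/- mice that were untreated or had received PMSG or oestradiol (E2). The members were 41 gene symbols: 16 of the basal lamina and 25 of the interstitial matrix, the latter being 8 collagens and 17 glycoproteins, proteoglycans and elastic fibre proteins. A member was represented by the probe set annotated to that symbol alone with the highest mean signal over all arrays. Of the 41 symbols, 40 had such a probe set, out of 18193 genes in all. Fbn1 was not analysed here. All 40 passed the filter on low signals and were among the 12713 genes tested.

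A basal lamina is a thin sheet of type IV collagen and laminin networks, joined by nidogens and by heparan sulfate proteoglycans such as perlecan and agrin. In the ovary it encloses each follicle and separates the granulosa cells inside from the theca cells outside, and it also lies under vessel endothelium and around smooth muscle. The interstitial matrix is built from fibril-forming collagens I, III and V, collagen VI microfibrils, and the glycoproteins and proteoglycans attached to them, made largely by stromal fibroblasts and theca cells. Follicle growth is known for remodelling of both.

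The study held 18 arrays of ovarian total RNA in 6 groups of 3 biological replicates. All mice were females on a C57B6J/S129 background, 21 days old at the start, either Pik3cd+/- (1 intact copy of the gene) or Pik3cd-/- (none). Pik3cd encodes the delta catalytic subunit of phosphoinositide 3-kinase. In each genotype 1 group was untreated. A second group was collected 44 hours after a single intraperitoneal injection of 10 IU of PMSG, which acts on the FSH receptor and drives follicle growth. The third was collected 72 hours after the first of 3 intraperitoneal injections of 0.03 ml of E2, spaced 24 hours apart, with no concentration given. No group received vehicle, so treatment, injection and the added hours of age cannot be told apart. All controls were heterozygous, so no comparison with Pik3cd+/+ ovaries could be made. The labels do not say whether an array held 1 animal or several.

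Arrays had median signals from 48.4 to 50.9 intensity units, and each correlated with the other arrays of its group at a mean r of 0.969 to 0.993. With 3 arrays a group, precision is limited throughout. Of the 6 probe sets annotated to Pik3cd, 1 was lower in Pik3cd-/- ovaries by log2 changes of -1.12 untreated, -1.29 after PMSG and -1.36 after E2 (adjusted p over probe sets 0.000294, 1.56e-05 and 1.91e-05, limma). The brightest Pik3cd probe set was not past the threshold in any genotype comparison. The ovarian identity was checked with 9 granulosa and 10 oocyte marker genes, which were all above the filter. The summed signal of 8 oviduct markers (6 above the filter) was 226 to 845 in 16 arrays, but 2487 in replicate 2 of untreated Pik3cd+/- and 4626 in replicate 1 of Pik3cd+/- after PMSG. In such bulk samples, fewer cells of a type and less RNA per cell cannot be told apart.

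Below, a signal is a deposited intensity, given for replicates 1, 2 and 3 in that order. A change is a difference of group means of log2(signal + 8.58) ± its standard error from limma, and a fold is 2 to that power, so that changes of dim genes are understated. A gene was called if its adjusted p (Benjamini and Hochberg over the 12713 genes) was under 0.05. Treatments within a genotype share their untreated arrays, and the genotype differences use the same arrays as the treatment effects.

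The promoter windows of some basal lamina genes are shown first. They are the alpha 1 and alpha 2 chains of type IV collagen, and collagen XVIII, the member called in every genotype comparison. The type IV chains kept the steadiest ratio of any pair of members, but neither was called in any comparison with all arrays. RefSeq windows (build GRCm38.p6, 250 bases before to 50 after an annotated start) were held for 27 of the 41 symbols, 33 windows in all. Capitals mark the GC box GGGCGG and the CCAAT box CCAAT on either strand, so they also appear as CCGCCC and ATTGG. The first pair lies at chr8:11312777-11313076 on the minus strand (Col4a1) and chr8:11312555-11312854 on the plus strand (Col4a2); the windows share 78 bases, read in opposite directions. The Col18a1 windows lie on the minus strand, at chr10:77113656-77113955 and chr10:77166481-77166780, and belong to different annotated starts.
Col4a1: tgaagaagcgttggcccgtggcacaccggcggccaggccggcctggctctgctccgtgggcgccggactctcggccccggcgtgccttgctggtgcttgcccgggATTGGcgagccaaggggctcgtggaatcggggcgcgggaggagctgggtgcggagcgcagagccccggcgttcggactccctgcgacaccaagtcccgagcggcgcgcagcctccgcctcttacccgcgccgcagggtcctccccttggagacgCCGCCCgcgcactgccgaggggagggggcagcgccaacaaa
Col4a2: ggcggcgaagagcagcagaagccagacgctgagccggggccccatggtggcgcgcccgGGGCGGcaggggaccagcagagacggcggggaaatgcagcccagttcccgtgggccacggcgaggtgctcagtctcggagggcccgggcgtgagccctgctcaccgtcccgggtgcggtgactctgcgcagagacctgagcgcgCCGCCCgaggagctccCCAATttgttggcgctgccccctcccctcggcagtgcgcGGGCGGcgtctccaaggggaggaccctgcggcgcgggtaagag
Col18a1, first window: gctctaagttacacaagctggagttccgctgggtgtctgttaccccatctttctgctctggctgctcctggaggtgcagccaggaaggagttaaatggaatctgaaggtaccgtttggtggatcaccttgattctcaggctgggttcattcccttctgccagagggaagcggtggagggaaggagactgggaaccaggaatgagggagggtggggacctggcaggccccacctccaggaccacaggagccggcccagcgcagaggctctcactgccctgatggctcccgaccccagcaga
Col18a1, second window: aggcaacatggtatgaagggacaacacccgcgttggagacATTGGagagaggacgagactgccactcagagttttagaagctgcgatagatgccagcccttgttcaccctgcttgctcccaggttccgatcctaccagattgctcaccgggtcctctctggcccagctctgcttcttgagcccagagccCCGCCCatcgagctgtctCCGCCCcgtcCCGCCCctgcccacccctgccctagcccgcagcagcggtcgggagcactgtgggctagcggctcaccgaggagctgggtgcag
GC boxes were found in 21 of the 33 member windows (63.6%), against 35.7% of all 32851 windows of this length. CCAAT boxes were in 33.3% of member windows and 37.4% of all. The TATA box TATAAA stood in 9.09% of member windows and 13.6% of all. The AP-1 site TGANTCA was in 3.03% against 7.81%, and the FoxO site GTAAACA in 3.03% against 3.65%. The palindromic oestrogen response element was in none of the 33 and in 0.07% of all, and the cAMP response element TGACGTCA in none and in 1.79%. Median GC content was 60.3% for member windows and 52.7% for all, so the windows differ in base composition as well. The second Col18a1 window held 3 GC boxes and 1 CCAAT box, whereas the first held no match to any of the motifs searched. These matches describe letters in the windows only.

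**Figure D1:**
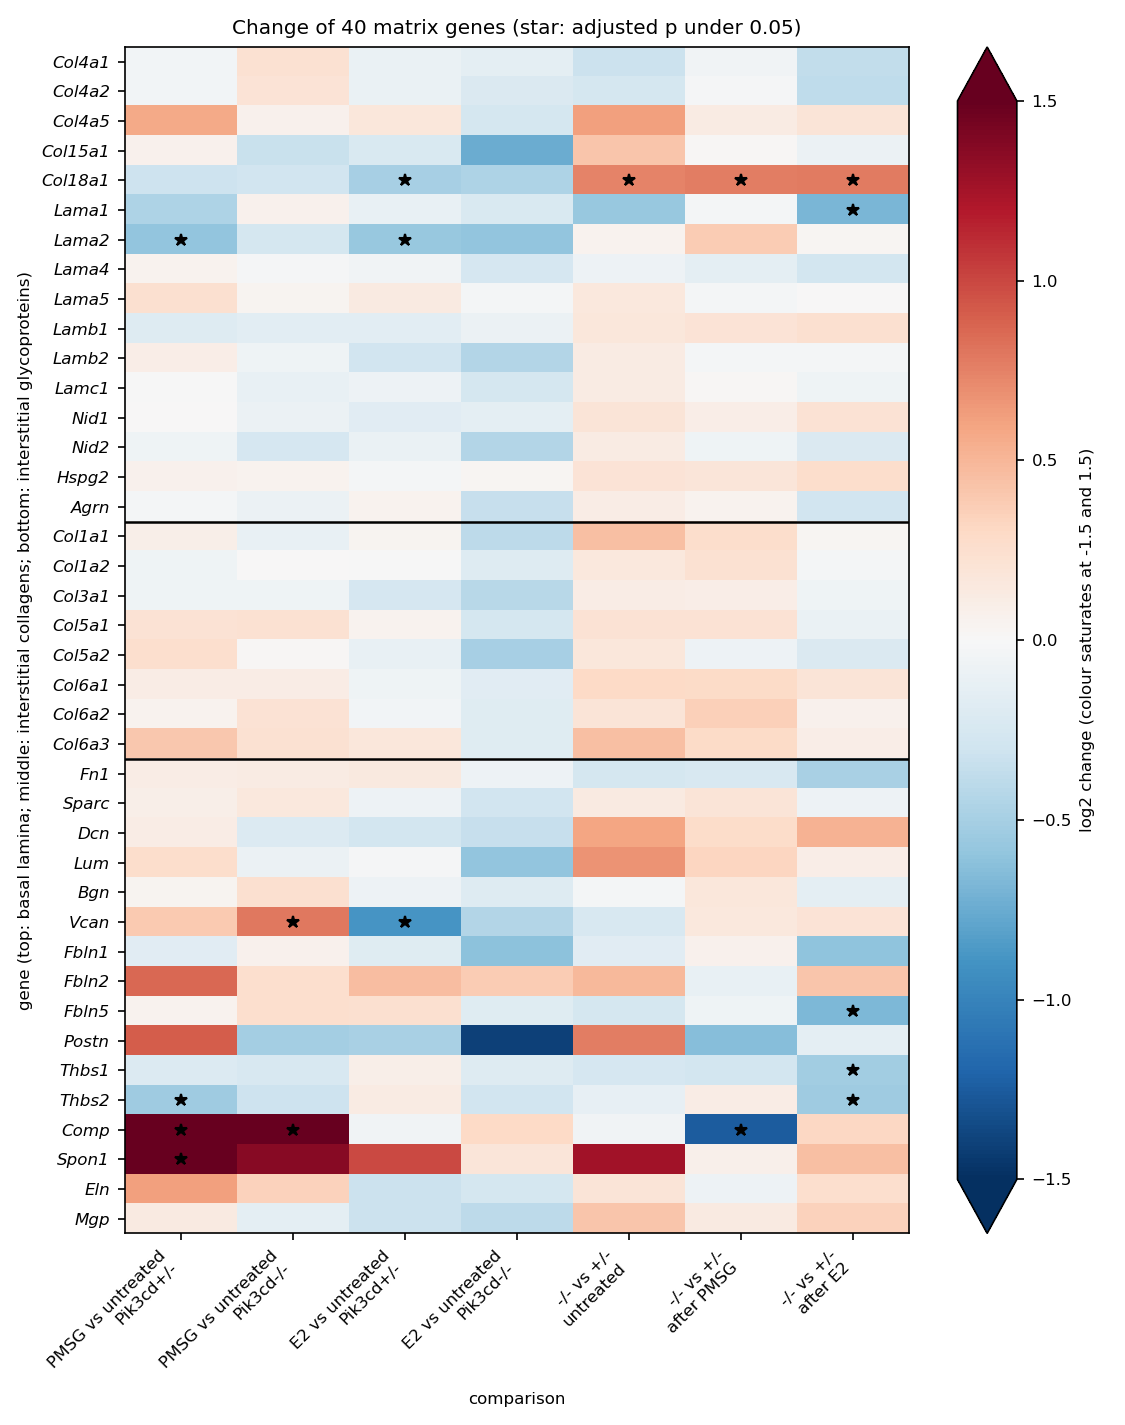
Log2 change of the 40 matrix genes (rows) in 7 comparisons (columns), as differences of group means of 3 arrays; red is higher, blue lower, colours saturate at -1.5 and 1.5, and stars mark an adjusted p under 0.05. Col18a1 is starred in all 3 genotype columns, Comp is starred in both PMSG columns, and no interstitial collagen is starred.

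After PMSG in Pik3cd+/- ovaries, 2 glycoproteins of the interstitial matrix rose several-fold while the collagens and most basal lamina genes moved little. Comp, a thrombospondin family protein that binds collagens, and Spon1 (F-spondin), a secreted matrix-attached glycoprotein, rose. Lama2, the alpha 2 chain of laminin, and Thbs2, a thrombospondin that restrains vessel growth, fell. Thus 2 of 40 members were called higher and 2 lower, where 17.7% of all tested genes were called, 5.81% higher and 11.9% lower. The median change of the members was 0.06, and that of all tested genes was -0.05. Signals of PMSG and untreated arrays did not overlap for 4 members on the higher side and 5 on the lower, against 15.1% and 24.9% of all tested genes. In the same arrays the macrophage markers C1qa (1.29), Aif1 (0.93), C1qb (1.06) and C1qc (1.11) were called higher, and the macrophage sum was 2551 to 5123 against 1868 to 2079 untreated. Of 10 oocyte markers 7 were called lower (median of the list -0.92), with sums of 8783 to 10074 against 16998 to 18208. Of 6 theca and steroid markers 3 were called higher and 2 lower, with sums of 21962 to 29547 against 14132 to 16547. Of 12 stromal fibroblast markers 2 were called lower and 0 higher, with overlapping sums of 9671 to 11816 against 11215 to 12033. Of 12 smooth muscle and pericyte markers 2 were called higher and 0 lower, with sums of 21757 to 26013 against 17330 to 20614. Of 6 oviduct markers 0 were called (limma), with overlapping sums of 328 to 4626 against 335 to 2487, the 4626 in replicate 1. Their part in the member values was not tested.

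Comp gave signals of 46.8, 40.9 and 38.7 in untreated Pik3cd+/- arrays and 233, 205 and 708 after PMSG. All 3 PMSG arrays lay above all untreated ones, and replicate 3 was far above the other two. The change was 2.72 ± 0.32, or 6.59-fold (adjusted p 0.000234). Replicate 3 was also the array with the highest granulosa marker sum, 42499 against 26953 and 26367 in its group mates, with all 9 granulosa genes above the filter. The granulosa genes as a list did not rise after PMSG in Pik3cd+/-. Of the 9, 6 had a change below 0 (median -0.06), with 1 called higher and 1 lower. Without replicate 3, the Comp change was 2.17 (adjusted p 2.63e-05). Comp in Pik3cd-/- ovaries read 31.2, 48.3 and 43.0 untreated and 136, 121 and 140 after PMSG. The groups were again apart, with a change of 1.53 ± 0.32, or 2.88-fold (adjusted p 0.0193). That call was lost when untreated replicate 1 or any of the PMSG replicates was left out (adjusted p 0.0512 to 0.083). Granulosa sums in these 3 PMSG arrays were 32176 to 34635, against 20736 to 28575 untreated, and their part in the result was not tested. In both genotypes every untreated Comp signal lay below the lowest array median (48.4), so the size of these changes rests on a dim baseline. The untreated group means were also below the filter of 5.87. Comp was therefore among the tested genes only through groups where it was higher, those after PMSG included.

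Spon1 signals in Pik3cd+/- ovaries were 269, 337 and 406 untreated and 2336, 1834 and 1816 after PMSG. Every PMSG array exceeded every untreated one, for a change of 2.54 ± 0.42, or 5.83-fold (adjusted p 0.00171). The 3 other Spon1 probe sets rose as well, by 0.84 to 1.76, each past the threshold. In Pik3cd-/- ovaries the untreated signals were already 955, 902 and 607, and the PMSG signals were 2018, 2204 and 2027. The groups did not overlap, but the change of 1.36 ± 0.42 was not called (adjusted p 0.0955, limma). It was called in 1 of 17 alternatives tried (lowest adjusted p 0.0159). The standard error draws on the replicate spread of all 6 groups. For Spon1 the log2 range was 2.37 in Pik3cd-/- after E2, against 0.65 untreated and 0.13 after PMSG in that genotype. After PMSG the genotypes thus reached similar Spon1 signals, 1995 ± 295 in Pik3cd+/- and 2083 ± 105 in Pik3cd-/- (mean ± SD, n = 3). Untreated, the genotype difference of 1.25 ± 0.42 was not called (adjusted p 0.107), although the arrays did not overlap.

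Lama2 fell in Pik3cd+/- ovaries from 1224, 1073 and 1043 to 842, 704 and 667. No PMSG array reached the lowest untreated one, and the change was -0.59 ± 0.13 (adjusted p 0.00843). The Pik3cd-/- arrays read 1155, 1357 and 976 untreated and 897, 1108 and 891 after PMSG, which overlap, and the change of -0.26 ± 0.13 was not called (adjusted p 0.298). Thbs2 read 236, 219 and 166 untreated and 139, 122 and 157 after PMSG in Pik3cd+/-. The arrays were apart by a narrow margin, for a change of -0.54 ± 0.17 (adjusted p 0.0413). The call was lost without replicate 1 or 2 of either group (adjusted p 0.0978 to 0.17), and the other 2 Thbs2 probe sets gave -0.56 and 0.08, neither past the threshold.

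In Pik3cd-/- ovaries after PMSG, 2 of 40 members were called higher and none lower, where 2.39% of all tested genes were called, 1.71% higher and 0.684% lower. Arrays did not overlap for 3 members on each side, beside 12.4% of all tested genes on the higher side and 14.4% on the lower. Beside Comp, the called gene was Vcan. Vcan encodes versican, a large proteoglycan that binds hyaluronan and is known from the matrix of the expanding cumulus. Its signals were 816, 761 and 634 untreated and 1186, 1340 and 1294 after PMSG. All PMSG arrays were above all untreated ones, with a change of 0.79 ± 0.19 (adjusted p 0.0424), and the other 2 tested Vcan probe sets gave 1.01 and 1.08, both past the threshold. Leaving out untreated replicate 2 or 3, or any PMSG replicate, ended the call (adjusted p 0.0851 to 0.146). In Pik3cd+/- ovaries Vcan read 939, 699 and 997 untreated and 1029, 872 and 1661 after PMSG. These overlap, and the change of 0.39 ± 0.19 was not called (adjusted p 0.167). Replicate 3, the array with the highest Comp and granulosa signals, was again the highest.

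The difference between genotypes in the PMSG change was called for none of the 40 members and for 0% of all tested genes (limma). At an unadjusted p under 0.05 were 1 member and 1194 of the 12713 tested genes. That member was Comp, with a difference of -1.19 ± 0.45 (adjusted p 0.43). Spon1 differed by -1.18 ± 0.59 (adjusted p 0.565) and Vcan by 0.39 ± 0.27 (adjusted p 0.666). Postn, or periostin, a matricellular protein of collagen-rich tissue, had the widest difference, -1.41 ± 0.69 (adjusted p 0.555). Its signals in Pik3cd+/- were 723, 683 and 627 untreated and 2019, 1148 and 889 after PMSG; in Pik3cd-/- they were 1127, 1486 and 931 and then 578, 994 and 930. The Postn means moved in opposite directions, but its spread among replicates was the widest of the members, and neither change was called.

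**Figure D2:**
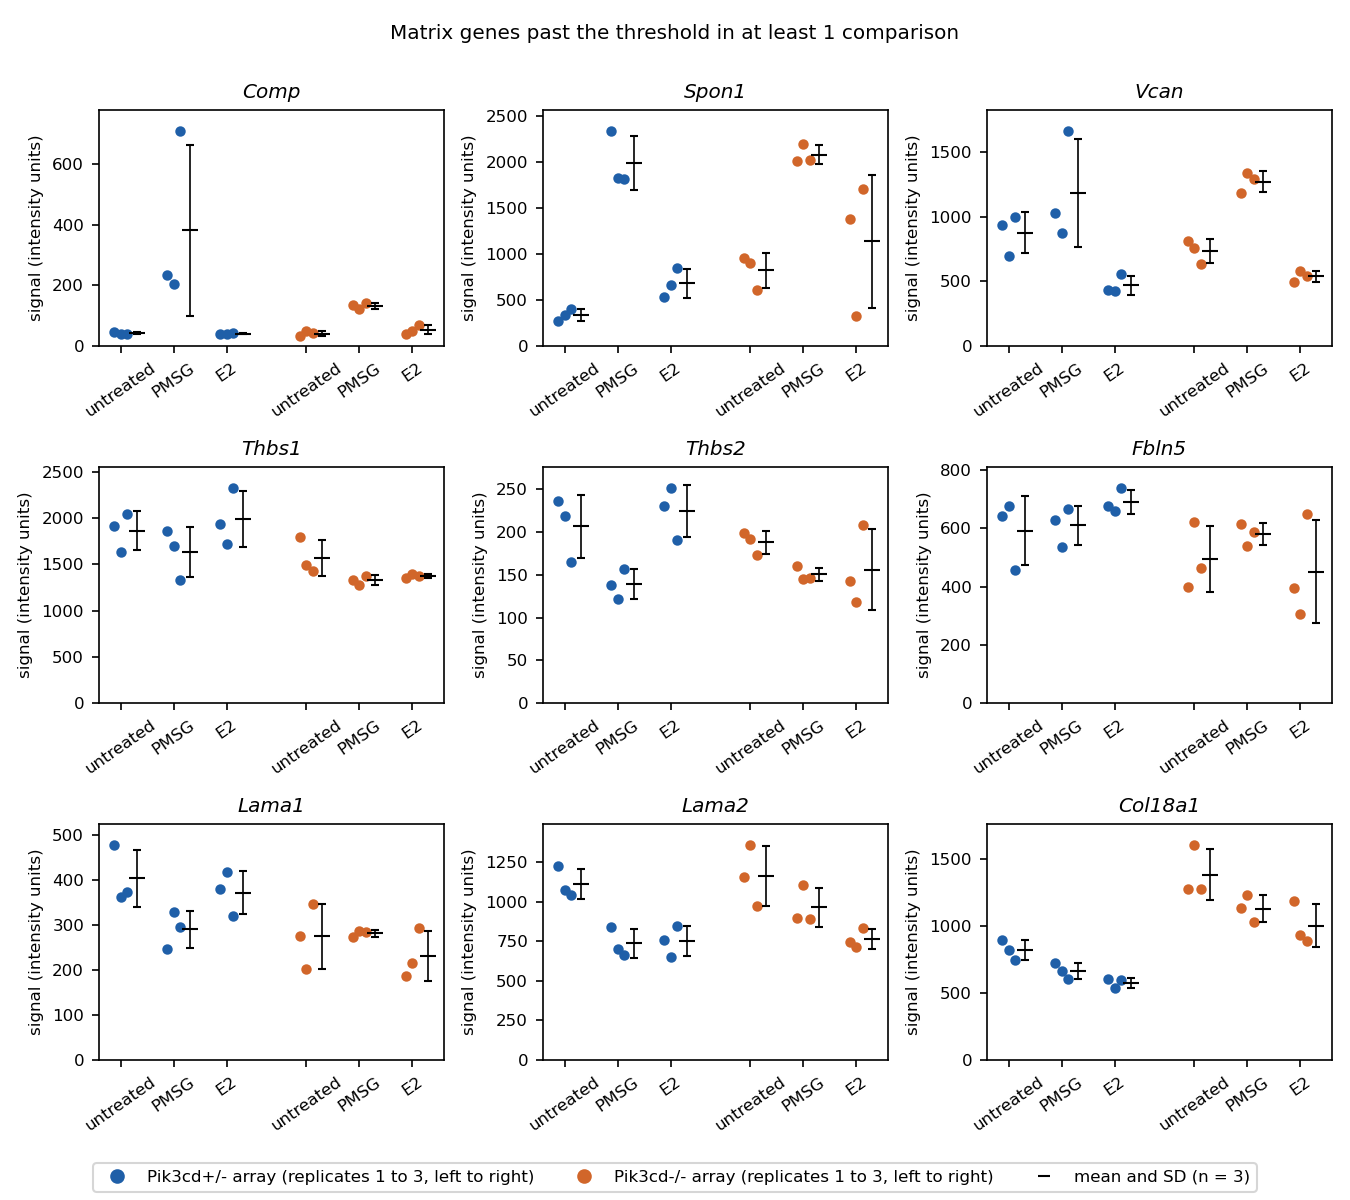
Signal of the 9 matrix genes past the threshold in at least 1 comparison, by group (intensity units, linear axes from 0); each point is an array, and the bar beside it is the group mean ± SD (n = 3). Comp stands out after PMSG, most in replicate 3 of Pik3cd+/- (708), and Col18a1 lies higher in Pik3cd-/- (orange) than in Pik3cd+/- (blue) in each state.

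After E2 in Pik3cd+/- ovaries, the called members all fell: versican, the laminin alpha 2 chain and collagen XVIII. None of 40 members was called higher and 3 were called lower, against 1.18% and 0.44% of all tested genes, 1.62% in all. The median member change was -0.07, beside 0.00354 over all tested genes, and 28 of 40 members had a change below 0, against 49% of all. Arrays did not overlap for 3 members on the higher side and 10 on the lower, beside 14.2% and 14.6% of all tested genes.

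Vcan read 939, 699 and 997 in untreated Pik3cd+/- arrays and 431, 424 and 556 after E2. All E2 arrays lay below, with a change of -0.88 ± 0.19 (adjusted p 0.0328), and the other 2 tested Vcan probe sets gave -0.87 and -0.78, both past the threshold. Lama2 went from 1224, 1073 and 1043 to 756, 654 and 848, again without overlap, a change of -0.56 ± 0.13 (adjusted p 0.0442). Col18a1, whose collagen XVIII is a basal lamina heparan sulfate proteoglycan and the source of endostatin, went from 896, 821 and 749 to 601, 533 and 595. Its change was -0.50 ± 0.12 (adjusted p 0.0472), and the second Col18a1 probe set gave -0.43, also past the threshold.

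These 3 calls stood near the threshold. The Vcan call was lost without untreated replicate 1 or 3 or E2 replicate 1 or 2 (adjusted p 0.102 to 0.15). That of Lama2 was lost without any untreated replicate or E2 replicate 1 or 2 (0.0976 to 0.162), and that of Col18a1 without any 1 of the 6 arrays (0.0949 to 0.16). Over the same arrays, the summed signal of 12 stromal fibroblast markers was 11215 to 12033 untreated and 8810 to 9665 after E2, with all 12 genes above the filter and Tcf21 (-0.53) and Nr2f2 (-0.41) called lower. The oocyte sum was 16998 to 18208 untreated and 11066 to 12534 after E2, with 1 of 10 markers called lower, and the macrophage sum was 1868 to 2079 and 2788 to 2981, with 0 of 10 called (limma; 4 at an unadjusted p under 0.05). All 6 theca and steroid markers had a change below 0 (median -0.53), with 1 called lower. Their sums were 14132 to 16547 untreated and 8508 to 12466 after E2. Of 12 smooth muscle and pericyte markers 9 were above 0 and 3 below, with 0 called (limma). Their sums were 17330 to 20614 and 22278 to 22624. The part of these cell types in the matrix signals was not tested.

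In Pik3cd-/- ovaries after E2 no member was called (limma). At an unadjusted p under 0.05 were 11 of 40 members and 1862 of the 12713 tested genes. Of all tested genes 0.0551% were called, 0.00787% higher and 0.0472% lower. Of the 3 genes called in Pik3cd+/-, Lama2 and Col18a1 had changes close to those in Pik3cd+/-, and that of Vcan was nearer 0. Lama2 read 1155, 1357 and 976 untreated and 745, 712 and 833 after E2, a change of -0.59 ± 0.13 (adjusted p 0.15). Col18a1 read 1276, 1601 and 1273 and then 1185, 932 and 886, a change of -0.47 ± 0.12 (adjusted p 0.204). Vcan went from 816, 761 and 634 to 493, 582 and 543, a change of -0.44 ± 0.19 (adjusted p 0.318). In none of the 3 did E2 and untreated arrays overlap. Such separation was seen for 7 members on the lower side and none on the higher, against 8.54% and 4.72% of all tested genes. The difference between genotypes in the E2 change was called for no member and for 0% of all genes (limma). At an unadjusted p under 0.05 were 1 member, Agrn (-0.40 ± 0.18, adjusted p 0.68), and 924 of the 12713 tested genes. For Lama2 that difference was -0.03 ± 0.19, and for Col18a1 it was 0.04 ± 0.17. For Vcan it was 0.44 ± 0.27 (adjusted p 0.714), the highest of the 40 members.

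Between genotypes, collagen XVIII differed most steadily among the members: Col18a1 was the one called in every state, higher in Pik3cd-/- ovaries each time. Untreated, it read 896, 821 and 749 in Pik3cd+/- and 1276, 1601 and 1273 in Pik3cd-/-. After PMSG the signals were 721, 665 and 602 against 1132, 1230 and 1027, and after E2 they were 601, 533 and 595 against 1185, 932 and 886. In no state did an array of one genotype reach the range of the other. The differences were 0.74 ± 0.12, 0.76 ± 0.12 and 0.78 ± 0.12, or 1.67-, 1.70- and 1.71-fold (adjusted p 0.0165, 0.00418 and 0.0019). The second probe set gave 0.74, 0.76 and 0.69, each past the threshold. The untreated call was lost without replicate 2 of either genotype (adjusted p 0.0757 and 0.0769), and the other 2 were kept in all 17 alternatives tried. Oocyte markers were higher in Pik3cd-/- in the same comparisons: 4 of 10 were called untreated, 9 of 10 after PMSG and 10 of 10 after E2, none lower. Their sums were 16998 to 18208 against 24584 to 29739 untreated, 8783 to 10074 against 19311 to 21745 after PMSG, and 11066 to 12534 against 15508 to 28360 after E2. Their part in the Col18a1 difference was not tested.

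Col18a1 was the only member called between untreated genotypes: 1 of 40 higher and none lower, against 0.834% and 1.34% of all tested genes, 2.17% in all. The members as a whole lay slightly higher in untreated Pik3cd-/- ovaries, with a median of 0.16 beside -0.01 over all tested genes and 28 of 40 above 0. All 8 interstitial collagens had differences above 0 (median 0.21), but 0 of the 8 were called, and none had an unadjusted p under 0.05 (limma). Groups did not overlap for 12 members on the higher side and 3 on the lower, beside 12.5% and 14.1% of all tested genes. Decorin (Dcn), a small proteoglycan on collagen fibrils, read 5226, 4518 and 5636 in Pik3cd+/- and 7861, 8952 and 6492 in Pik3cd-/-, a difference of 0.59 ± 0.22 (adjusted p 0.152). Its relative lumican (Lum) differed by 0.68 ± 0.32 (adjusted p 0.244). Over the same groups the stromal fibroblast sum was 11215 to 12033 in Pik3cd+/- and 11678 to 15940 in Pik3cd-/-, the macrophage sum 1868 to 2079 and 2288 to 4698, and the oocyte sum 16998 to 18208 and 24584 to 29739. Their part in the member values was not tested.

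After PMSG, 1 member was higher in Pik3cd-/- (Col18a1) and 1 lower (Comp), against 3.08% and 1.05% of all tested genes, 4.13% in all. Groups were apart for 4 members on the higher side and 1 on the lower, beside 16.7% and 11.2%. The Comp difference was -1.24 ± 0.32 (adjusted p 0.0397), between 233, 205 and 708 in Pik3cd+/- and 136, 121 and 140 in Pik3cd-/-. It depended on replicate 3 of Pik3cd+/- for its size: without that array the difference was -0.69 (adjusted p 0.0479). Without replicate 1 of Pik3cd+/-, or any replicate of Pik3cd-/-, it was no longer called (adjusted p 0.0539 to 0.163).

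After E2, 1 of 40 members was higher in Pik3cd-/- and 4 were lower, against 4.85% and 12% of all tested genes, 16.8% in all. The lower ones were Lama1, the laminin alpha 1 chain, Thbs1 and Thbs2, which are related thrombospondins, and Fbln5 (fibulin 5), a protein of elastic fibre assembly. Thbs1 read 1938, 1719 and 2321 in Pik3cd+/- and 1352, 1395 and 1369 in Pik3cd-/-, without overlap, a difference of -0.52 ± 0.13 (adjusted p 0.0151). The second Thbs1 probe set gave -0.39 and did not pass. Lama1 read 380, 417 and 321 against 186, 215 and 294, a difference of -0.68 ± 0.19 (adjusted p 0.0237). Fbln5 read 679, 659 and 738 against 396, 307 and 649, apart by a narrow margin, with a difference of -0.68 ± 0.22 (adjusted p 0.0446). Thbs2 read 231, 251 and 191 against 143, 118 and 208; here the genotypes overlap, and the difference was -0.53 ± 0.17 (adjusted p 0.0463), with other probe sets at -0.52 and 0.02, neither past the threshold. Over all members, 3 were apart on the higher side and 4 on the lower, beside 8.89% and 24.5% of all tested genes.

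Which members were called after E2 turned on single Pik3cd-/- arrays. Without replicate 1, Col18a1 alone was called, while 0.982% of all tested genes were called higher and 4.09% lower. Without replicate 2, 8 members were called: Col18a1, Col6a1, Dcn, Fbln2, Spon1, Eln and Mgp higher and Thbs1 lower, while 3.47% of all tested genes were called higher and 6.51% lower. Without replicate 3, 11 were called: Col18a1 higher, and Col4a1, Col4a2, Lama1, Lama4, Agrn, Fn1, Fbln1, Fbln5, Thbs1 and Thbs2 lower, while 9.81% and 13.5% of all tested genes were. Col18a1 was thus the member called in each of the 3 reduced fits. Dcn moved from 0.53 with all arrays to 0.85 without replicate 2, and Fn1 (fibronectin) from -0.48 to -0.99 without replicate 3. Among the Pik3cd+/- arrays, leaving out replicate 1 or 2 left 2 members called in each case. Lama1 was lost without replicate 1 or 2 of either genotype (adjusted p 0.0649 to 0.105), as was Thbs2 (0.131 to 0.172). Fbln5 was lost without any Pik3cd+/- replicate or replicate 1 or 2 of Pik3cd-/- (0.0851 to 0.169), and Thbs1 without replicate 1 of Pik3cd-/- (0.057). The Fbln5 and Thbs2 calls were also lost with no filter, quantile normalization, scaling to the same trimmed mean, the replicate block and the mean of all probe sets (adjusted p 0.0563 to 0.139), so that each held in 6 of 17 alternatives. In a model of only these groups, Lama1, Fbln5, Thbs1 and Thbs2 were all lost (0.0709 to 0.163).

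The Pik3cd-/- arrays after E2 spread more widely in matrix genes than any other group. The range over the 3 replicates had a median of 0.78 over the 40 members, beside 0.27 over all tested genes, and in the other 5 groups the member median was 0.19 to 0.45. Replicate 2 was the lowest of the 3 for 32 of 40 members, and replicate 3 the highest for 34. Over all tested genes these shares were 36% and 31.8%. Such orders were not particular to this group. In untreated Pik3cd-/- replicate 3 was the lowest for 34 of 40 members, beside 26.1% of all tested genes. In Pik3cd+/- after PMSG replicate 1 was the highest for 31 members and replicate 3 the lowest for 31, beside 27.8% and 29.6%. The interstitial class spread most, with a median range of 1.12 against 0.53 for the basal lamina. Elastin (Eln) read 531, 84.7 and 529, periostin 676, 136 and 879, and Spon1 1384, 324 and 1705. The collagens followed: Col3a1 read 9518, 6481 and 13287, and Col6a2 read 4185, 1889 and 5712.

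Markers of several cell types ran in the same order over these 3 arrays. The adipocyte sum was 7368, 2082 and 18901 (6 of 7 measured genes above the filter), the macrophage sum 4162, 1312 and 6515 (10 of 11), the stromal fibroblast sum 12934, 8226 and 13637 (12 of 12) and the smooth muscle and pericyte sum 21711, 13931 and 23053 (12 of 12). The oocyte sum was 27268, 28360 and 15508. In 2 other groups the interstitial mean and the macrophage sum also shared an order: in Pik3cd+/- after PMSG the interstitial means were 11.01, 10.76 and 10.66 and the macrophage sums 5123, 4075 and 2551, and in untreated Pik3cd-/- they were 10.69, 10.83 and 10.44 and 2979, 4698 and 2288. The stromal fibroblast sums had the same orders there (11816, 10317 and 9671, then 14229, 15940 and 11678), as had the adipocyte and surface epithelium sums. In untreated and E2-treated Pik3cd+/- and in Pik3cd-/- after PMSG, the macrophage sum did not share the interstitial order. The fibroblast sum shared it in both of those Pik3cd+/- groups, and the oviduct sum only in Pik3cd+/- after E2. The part of these cell types in the spread of matrix genes was not tested.

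**Figure D3:**
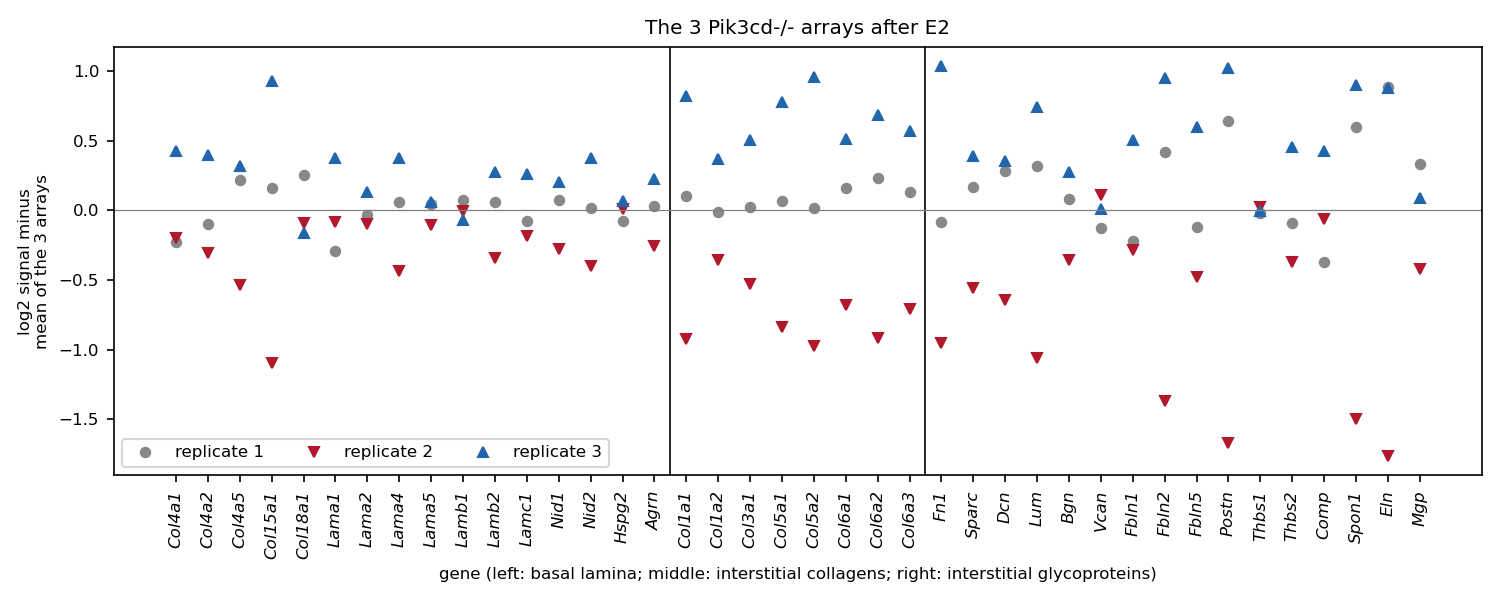
Each matrix gene in the 3 Pik3cd-/- arrays after E2, as log2 signal minus the mean of the 3 arrays, with basal lamina genes at left, interstitial collagens in the middle and interstitial glycoproteins at right. Replicate 2 (downward triangles) is the lowest for 32 of the 40 genes and replicate 3 (upward triangles) the highest for 34.

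That spread bears on the direction of the E2 change as well. In Pik3cd-/- ovaries 36 of 40 members had an E2 change below 0 (median -0.26), while 61.7% of all tested genes did (median -0.05). All 8 interstitial collagens were below 0, with a median of -0.23, and 0 of the 8 were called (limma; 1 at an unadjusted p under 0.05). Without replicate 2, 26 of 40 members were below 0 and the median was -0.03. Without replicate 1 or 3 the counts were 37 and 38. Likewise, the E2 change was lower in Pik3cd-/- than in Pik3cd+/- for 33 of 40 members, beside 60.4% of all tested genes, but for 15 of 40 without replicate 2.

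Basal lamina and interstitial genes were then compared as classes, by the mean of log2(signal + 8.58) over 16 and 24 genes in each array. No p is given, since the members were chosen with results of these data known. After PMSG in Pik3cd+/- the basal lamina mean changed by -0.04 and the interstitial mean by 0.37. The basal lamina mean minus the interstitial mean was -1.23, -1.23 and -1.21 in untreated arrays and -1.72, -1.55 and -1.63 after PMSG, without overlap. The change of this difference was -0.41, with a pooled SD over arrays of 0.06. In Pik3cd-/- it went from -1.27, -1.43 and -1.28 to -1.63, -1.52 and -1.54, again without overlap, a change of -0.24 (SD 0.08). Comp and Spon1 carried part of this: without them the changes were -0.21 (SD 0.07) and -0.12 (SD 0.08). Leaving these 2 out was decided with the values in view.

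After E2 the class difference moved less. In Pik3cd+/- ovaries the basal lamina mean changed by -0.13 and the interstitial mean by -0.04, a difference of -0.10 (SD 0.07). In Pik3cd-/- they changed by -0.29 and -0.28, a difference of -0.0093 whose SD over arrays, 0.29, was far larger. That difference ran from -0.23 to 0.15 as single arrays were left out. Between genotypes the class difference was -0.10 (SD 0.07) untreated, 0.07 (SD 0.07) after PMSG and -0.02 (SD 0.29) after E2. The last 2 were no larger than the spread between arrays.

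**Figure D4:**
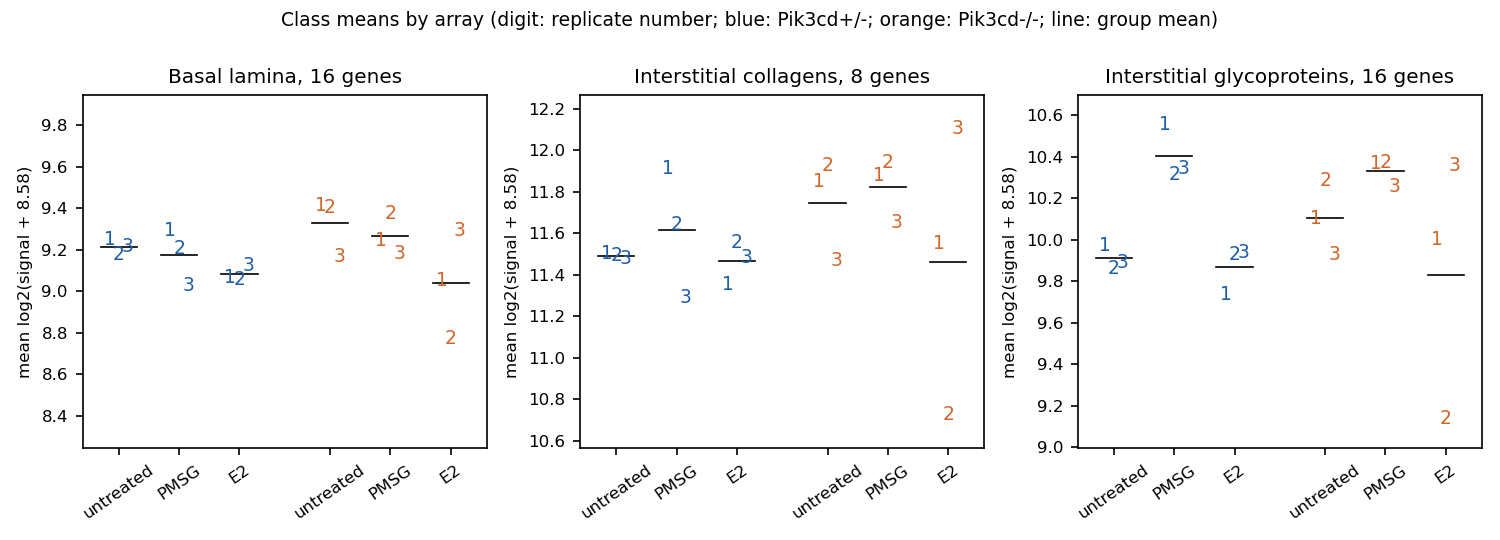
Mean log2(signal + 8.58) per array for 16 basal lamina genes, 8 interstitial collagens and 16 interstitial glycoproteins, by group; digits are replicate numbers, blue is Pik3cd+/-, orange is Pik3cd-/-, lines are group means, and the vertical axes span the same log2 range. The glycoprotein group means were higher after PMSG in both genotypes (10.40 and 10.33 against 9.91 and 10.11 untreated). The median change of the 16 genes was only 0.12 in Pik3cd+/- and 0.14 in Pik3cd-/-. Comp and Spon1 rose by 2.72 and 2.54 in Pik3cd+/- and by 1.53 and 1.36 in Pik3cd-/-. The E2 arrays of Pik3cd-/- spread most in the 2 interstitial panels.

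Within the basal lamina, the chains of one network did not all vary alike. Col4a1 and Col4a2, which form the main type IV collagen trimer from divergent neighbouring genes, kept the steadiest ratio of all 780 pairs of members: the SD of their log2 ratio over 18 arrays was 0.06, against a median of 0.37 over pairs (range 0.06 to 1.32). Their log2 ratio stayed between 1.06 and 1.31. Col4a1 read 3708, 3621 and 3577 in untreated Pik3cd+/- arrays and 3325, 3037 and 2445 in Pik3cd-/-, and Col4a2 read 1572, 1579 and 1605 and then 1448, 1457 and 1086. Both were lower in every untreated Pik3cd-/- array, with differences of -0.32 ± 0.14 and -0.26 ± 0.14 that were not called (adjusted p 0.201 and 0.312). Col4a5, an X-linked chain of another type IV trimer, went the other way, at 0.62 ± 0.26 (adjusted p 0.191).

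Among laminins, beta 1 and gamma 1, the chains of the common heterotrimers, were steady. Lamc1 had group means of 369 to 442, and Lamb1 of 2432 to 3139. The SD of their log2 ratio was 0.17, rank 50 of 780 from the steadiest. The alpha 1 chain followed them less closely: the ratio of Lama1 to Lamc1 had an SD of 0.38 (rank 394) and that of Lama1 to Lamb1 an SD of 0.45 (rank 499). Untreated, Lama1 read 477, 362 and 373 in Pik3cd+/- and 277, 201 and 346 in Pik3cd-/-, a difference of -0.56 ± 0.19 that was not called (adjusted p 0.105). After PMSG its signals were 248, 330 and 295 against 273, 287 and 285, which overlap (-0.04, adjusted p 0.953). Lamb2, a beta chain of muscle and kidney laminins, had group means of 186 to 252, Lama4, the vascular alpha chain, of 276 to 355, and Lama5 of 70.8 to 85.2. None of these 5 other chains was called in any comparison.

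The linkers and proteoglycans of the basal lamina changed little. Nid1 and Nid2, the nidogens that bridge laminin and type IV collagen, had highest over lowest group means of 1.29- and 1.34-fold. Perlecan (Hspg2) ranged 1.22-fold and agrin (Agrn) 1.28-fold, and none of the 4 was called in any comparison. Hspg2, Agrn and Col15a1 lie on chromosome 4, as Pik3cd does. Their genotype differences were 0.20, 0.19 and 0.27 for Hspg2, 0.11, 0.06 and -0.29 for Agrn, and 0.42, 0.02 and -0.09 for Col15a1 (untreated, PMSG, E2), and none was called.

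**Figure D5:**
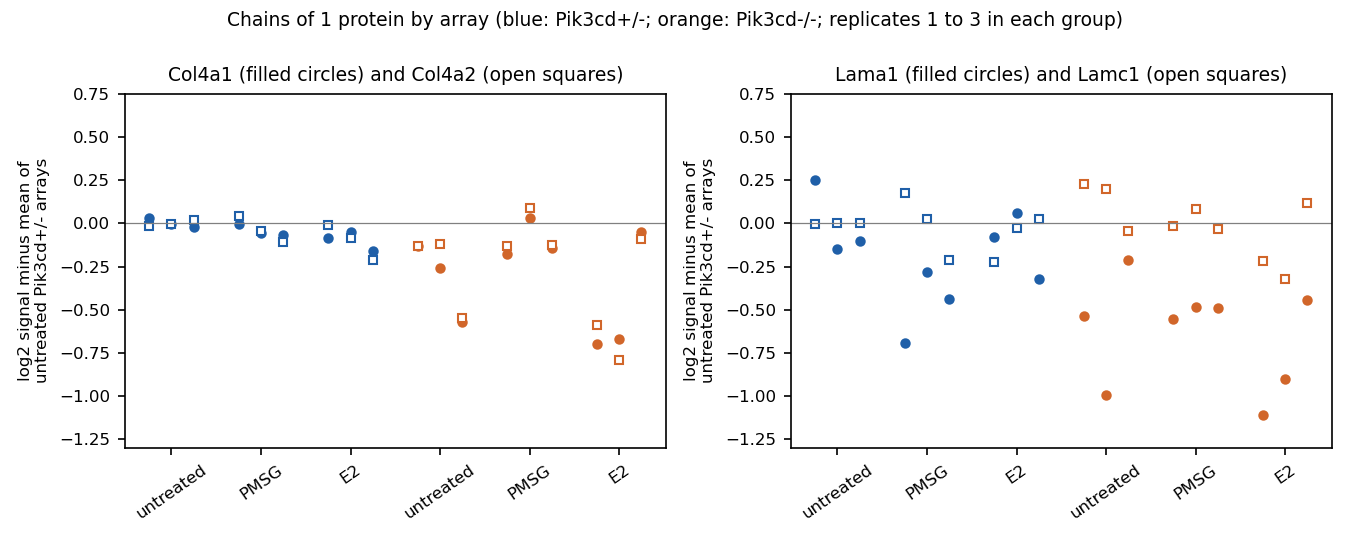
Log2 signal of 2 pairs of basal lamina chains in each array, as the difference from the mean of the untreated Pik3cd+/- arrays; blue is Pik3cd+/-, orange is Pik3cd-/-, and the 3 points of a group are replicates 1 to 3. Col4a1 and Col4a2 (left) track each other with an SD of their ratio of 0.06, whereas Lama1 lies apart from Lamc1 (right, SD 0.38).

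None of the 8 interstitial collagens was called in any of the 9 comparisons (limma), and 1 of them reached an unadjusted p under 0.05, in 1 comparison only (Col3a1 after E2 in Pik3cd-/-, -0.42 ± 0.18). Highest over lowest group means ran from 1.17-fold (Col1a2) to 1.62-fold (Col6a3). Col1a2, a chain of the type I trimer, read 10240, 10316 and 9850 in untreated Pik3cd+/- and 12235, 11949 and 9811 in Pik3cd-/-, which overlap. Its partner Col1a1 read 1612, 1668 and 1497 and then 2418, 2329 and 1853, apart, with a difference of 0.46 that was not called. The log2 ratio of these partners had an SD of 0.25 (rank 145). Col6a1 and Col6a2, neighbours on chromosome 10, had the third steadiest ratio of all pairs (SD 0.10), and Col6a3, which lies elsewhere, followed Col6a1 with an SD of 0.14 (rank 22).

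The other glycoproteins and proteoglycans were not called in any comparison. Sparc, which binds collagen and calcium, and biglycan (Bgn) had the second steadiest ratio of all pairs, with an SD of 0.10, and highest over lowest group means of 1.31- and 1.33-fold. Fbln2 and Eln had wider group means, 2.26- and 1.98-fold, but also wide replicate spreads. In Pik3cd+/- arrays Fbln2 read 197, 186 and 190 untreated and 476, 422 and 217 after PMSG, and Eln 340, 287 and 298 and then 624, 532 and 323. Neither change was called. Fbln1, a fibulin of basal laminae and elastic fibres, read 1260, 1336 and 1437 in Pik3cd+/- after E2 and 756, 722 and 1252 in Pik3cd-/-, and missed the threshold at -0.60 ± 0.20 (adjusted p 0.0512). Mgp, the matrix Gla protein that restrains calcification, differed between untreated genotypes by 0.42 ± 0.16 (adjusted p 0.164).

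Genes that make, cut, bind or regulate the matrix were taken from 4 lists. After PMSG in Pik3cd+/-, where 5.81% of all tested genes were called higher and 11.9% lower, 6 of 17 tested genes of TGF-beta signalling were called, 4 higher and 2 lower. Ccn2 (connective tissue growth factor) rose by 1.27 ± 0.22 (adjusted p 0.00216) and Ccn1 by 1.12 ± 0.20 (0.00257), while the signal transducer Smad3 fell by 0.59 on the log2 scale. Of 23 matrix receptors 1 was higher and 2 were lower, among them integrin alpha 6 (Itga6), a laminin receptor, at -0.69 ± 0.11 (adjusted p 0.00169), and syndecan 1 (Sdc1) at -0.73. Of 21 genes of collagen synthesis and crosslinking, Pcolce, an enhancer of procollagen cleavage, rose by 0.43. Of 13 metalloproteinases and inhibitors, the inhibitors Reck (0.75) and Timp1 (0.47) rose. For receptors and synthesis genes the share called was below the 17.7% of all tested genes, and for metalloproteinases and inhibitors it was close to it. In Pik3cd-/- ovaries after PMSG, where 2.39% of all tested genes were called, Ccn2 (0.98), Itga5 (0.43) and Plod2 (0.77), a collagen lysyl hydroxylase, were called higher, and Sdc2 (-0.62) lower. After E2 in Pik3cd+/-, with 1.62% of all tested genes called, Ccn1 (0.83), Tgfb1 (0.57) and P3h2 (0.43) were called higher and Ltbp2 (-0.70) lower.

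Between genotypes, Itga6 was higher in Pik3cd-/- in all 3 states, by 0.59, 1.00 and 0.82 (untreated, PMSG, E2), each called. Ccn1 and Ccn2 were lower after PMSG (-1.26 and -0.99) and after E2 (-0.86 and -1.27), and Smad3 was higher after PMSG (0.75). Plod2 was lower untreated (-0.74) and after E2 (-0.85). After E2, 7 of 21 genes of collagen synthesis were lower and 1 higher, beside the 12% and 4.85% of all tested genes, with a median of -0.27 against -0.07. Beside Plod2 the lower ones with the smallest p were Sec31a (-0.49), a coat protein for procollagen export, P3h2 (-0.46) and Plod3 (-0.39). Of 23 receptors 6 were lower, among them Itgb5 (-0.66) and Itgb3 (-0.59), and 1, Itga6, was higher. Of 13 metalloproteinases and inhibitors 2 were lower (Mmp11, -0.97, and Adam17, -0.55) and Timp3 was higher (0.49).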

How the data were processed

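Ovarian RNA was hybridised as biotinylated cRNA to Affymetrix arrays, per the labels' protocols, 18 arrays in 6 groups of 3. The authors deposited 1 linear intensity per probe set and array. MAS5 is named in the submitters' processing notes, with no version, and scaling is not given in the sources used here. Trimming 2% at each end, array means were 210.1 to 223.7, so no further normalization was applied. Of 45101 probe sets, 34945 were annotated to 1 gene. The brightest stood for each of 18193 genes.

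Values were tested as log2(signal + 8.58), the pseudocount being the 10th percentile. Genes with at least 1 group mean above the median (5.87) were kept. A model of 6 group means was fitted to 12713 genes with limma 3.58.1 in R 4.3.3 (lmFit, eBayes with trend), two-sided, for 9 contrasts, after a test on simulated data. Values per array are given for every member past the threshold. Of pathway lists, up to 4 called genes with the smallest p are named. Members and lists were chosen with earlier results of these data known. Alternatives were other pseudocounts, filters, scalings, probe sets and samples, a replicate block and each array left out. The p-values set a difference of group means against the spread between arrays within groups.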

Additional observations from a re-analysis of the deposited data

How the results depend on the processing

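Among 21 results of single members recomputed under every alternative, none changed direction. They were the calls of the report and some wide uncalled changes of Comp, Spon1 and Postn, picked from these same arrays. A kept direction was therefore likely beforehand and says little about the other members. Over all 40 members, leaving out replicate 2 of Pik3cd-/- after E2 moved the number below 0 from 36 to 26 for the E2 change in Pik3cd-/- and from 33 to 15 for its difference between genotypes. Comp, Spon1 and Lama2 after PMSG in Pik3cd+/- and Col18a1 between genotypes after PMSG and after E2 were called under all 17 tried for each. The number of members called changed by over 1.5 times as follows. After PMSG in Pik3cd-/- (2 in the report) it was 1 with a pseudocount of 64 and 1 with no filter. After E2 in Pik3cd+/- (3) it was 1 with no filter and 5 (1 higher, 4 lower) in a model of only the groups compared. Between untreated genotypes (1) it was 2 with only the groups compared, and after PMSG (2) it was 1 with no filter. Between genotypes after E2 (5) it was 3 with no filter, 3 with quantile normalization, 3 with scaling to the same 2% trimmed mean and 1 with only the groups compared. The basal lamina mean minus the interstitial mean, which changed by -0.41 after PMSG in Pik3cd+/- and -0.24 in Pik3cd-/-, changed by -0.48 and -0.32 with the probe set of highest variance, and by -0.21 and -0.12 without Comp and Spon1, which was chosen after seeing the data.

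Leaving out each array in turn gave 3 to 6 members called after PMSG in Pik3cd+/- and 0 to 1 in Pik3cd-/-, 0 to 2 after E2 in Pik3cd+/- and 0 in Pik3cd-/-, 0 to 2 between untreated genotypes, 1 to 2 after PMSG, 1 to 11 after E2 and 0 for both differences of change between genotypes. The class difference then ran, in the same order, from -0.45 to -0.37, -0.29 to -0.20, -0.15 to -0.05, -0.23 to 0.15, -0.13 to -0.05, 0.03 to 0.11 and -0.24 to 0.14. For the differences of change it ran from 0.12 to 0.22 (PMSG) and -0.13 to 0.24 (E2). With the replicate number as a block, 3, 2, 2, 0, 1, 2 and 4 members were called. The numbers share no stated litter or day, and same-numbered arrays deviated from their group means with correlations of -0.34 to 0.34, so they were not taken as pairs; 5 of 18 arrays correlated best with their own number. The calls lost other than by leaving out an array were, after PMSG in Pik3cd+/-, Thbs2 (no filter, replicate block, highest-variance probe set, mean of all probe sets); in Pik3cd-/-, Comp (pseudocount 64) and Vcan (no filter); after E2 in Pik3cd+/-, Col18a1 (pseudocount 64, no filter, no trend, highest-variance probe set), Lama2 (no filter, replicate block) and Vcan (mean of all probe sets); between genotypes after PMSG, Comp (no filter, only the groups compared); and after E2, those named in the report and Thbs2 with the highest-variance probe set. The causes of these changes were not tested, and dim probe sets limit what small changes could be seen.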
